A study of Rattus norvegicus with 16 samples.

Results

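Red cell transcripts were followed in the kidneys of 8 rats through 4 genes: Hbb, Alas2, Hba-a1 and Hba-a2. The members were the probe sets whose platform gene symbol is one of these names. The platform's annotation names 5147 genes in all. Member probe sets numbered 3 of the 8740 on the array that are not controls: 1 for Hbb, 1 for Alas2 and 1 that the annotation gives to both Hba-a1 and Hba-a2. The levels of Hba-a1 and Hba-a2 could therefore not be separated, and their shared probe set is called the alpha globin probe set here. It was kept because both of its symbols are members. A probe set that lists Hbb beside the non-members Hbbl1, Hbb-bs and Hbb-b1 was not counted as a member, and its values are given among the other globins. All 3 passed the brightness filter that left 5244 probe sets for testing.

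RNA of whole kidneys was hybridised to 1-colour arrays, 1 array per kidney, 16 in all. The left kidney served as the untreated control in all 8 rats. The right kidney had received ACTH (adrenocorticotropic hormone, the pituitary hormone that drives the adrenal cortex) in rats 1 and 5, DEX in rats 3 and 7, and saline in rats 2, 4, 6 and 8. DEX is given in the labels only as this abbreviation. The array titles name 4 saline rats and were followed, although the series' design text counts 2 rats for each treatment. Strain, sex, age, dose, route, duration and whether the kidneys were flushed of blood go unstated in the labels, as does whether a hormone reached the left kidney.

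Hbb encodes the adult beta chain of hemoglobin, and Hba-a1 and Hba-a2 are neighbouring genes for its alpha chain. Alas2 encodes the erythroid form of 5-aminolevulinate synthase, the enzyme that starts heme synthesis in developing red cells. Circulating reticulocytes still carry these messages after the nucleus is lost, so they reach RNA of any organ that holds blood. Globin messages have also been described in some kidney cells, and so a globin level is not by itself a measure of blood. In RNA of a whole organ, fewer red cells and less RNA per red cell cannot be told apart.

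The sequences just before the globin genes are printed as a description of the members. They lie before the annotated starts, so their likeness does not bear on the shared alpha globin probe set. Their part in the members' levels was not tested. RefSeq's promoter table (build GRCr8) held entries for all 4 members. Each line gives the 250 bases before the annotated start, 5′ to 3′ along the gene's strand, which is the minus strand for all 3. Hbb lies at chr1:167663722-167663971, Hba-a1 at chr10:15842581-15842830 and Hba-a2 at chr10:15829139-15829388. Capitals mark matches to CACCC, to CCAAT, to GATAA and to ATAAA, each searched on both strands.
Hbb: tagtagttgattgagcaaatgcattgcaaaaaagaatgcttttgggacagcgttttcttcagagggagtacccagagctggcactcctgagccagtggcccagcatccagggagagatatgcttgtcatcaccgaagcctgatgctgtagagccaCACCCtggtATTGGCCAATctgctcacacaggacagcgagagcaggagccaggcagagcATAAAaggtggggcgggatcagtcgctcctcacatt
Hba-a1: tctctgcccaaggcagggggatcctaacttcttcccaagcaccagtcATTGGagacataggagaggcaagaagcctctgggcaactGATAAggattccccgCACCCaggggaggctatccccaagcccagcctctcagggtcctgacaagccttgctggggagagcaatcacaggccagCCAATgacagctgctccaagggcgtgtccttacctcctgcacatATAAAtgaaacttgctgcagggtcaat
Hba-a2: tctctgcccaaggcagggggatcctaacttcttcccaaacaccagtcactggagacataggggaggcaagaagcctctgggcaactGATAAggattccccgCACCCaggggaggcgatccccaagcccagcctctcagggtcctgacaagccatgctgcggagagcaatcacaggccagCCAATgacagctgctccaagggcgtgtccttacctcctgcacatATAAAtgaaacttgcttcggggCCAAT

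The alpha globin promoters were alike at 241 of 250 positions (96.4%) and differed at 9. Both held CACCC at 149 to 145 bases before the start, CCAAT at 71 to 67, GATAA at 164 to 160 and ATAAA at 27 to 23. Hba-a1 alone held ATTGG, the reverse complement of CCAAT, at 203 to 199, and Hba-a2 alone held a further CCAAT at 5 to 1. Hbb held CACCC at 95 to 91, ATTGG at 86 to 82 directly beside CCAAT at 81 to 77, and ATAAA at 36 to 32, with no GATAA in its window. These short motifs are common: of 33469 promoters of this table, 49.2% held CACCC, 34.0% CCAAT, 23.5% GATAA and 39.3% ATAAA. A match is a description of the letters only. The window listed for Alas2 starts 4800 bases inside the outermost start of the gene and is not shown.

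Values are the authors' linear signals, 1 per probe set, which ran from 5.18 to 12664 with array medians between 76.0 and 82.1. Kidney identity was clear, with the 9 tested markers of the proximal tubule summing to between 20035 and 23200 in the left kidneys. The largest axis of variation, 45.7% of the variance, separated all arrays of rats 1 to 4 from all arrays of rats 5 to 8, a split that the labels do not explain. Each set of 4 holds 1 ACTH rat, 1 DEX rat and 2 saline rats. Kidneys of the same rat deviated together, with correlations of 0.62 to 0.76. Changes below are therefore the right minus the left kidney of the same rat, on the scale of log2(signal + 16), unless levels are named.

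Hbb signal was variable from rat to rat. In the left kidneys it was 5282 in rat 1, 2419 in rat 2, 3736 in rat 3, 1478 in rat 4, 2969 in rat 5, 5281 in rat 6, 4454 in rat 7 and 2611 in rat 8. In the right kidneys of the same rats it was 4536, 2973, 2929, 2304, 4685, 3842, 2791 and 3194. The left kidneys of rats 1 and 6 were the highest of the 16 kidneys and that of rat 4 was the lowest, with left and right kidneys overlapping over most of their range.

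The alpha globin probe set was high and low in much the same rats. Its left kidney signals for rats 1 to 8 were 6645, 4383, 5905, 2655, 4274, 7805, 6572 and 3972. Its right kidney signals were 6551, 4373, 4575, 3875, 7237, 6407, 4444 and 5032. Rat 6 was highest and rat 4 lowest on the left, and the ACTH rats 1 and 5 were the highest on the right.

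Alas2 was measured at 331, 191, 229, 157, 150, 380, 209 and 134 in the left kidneys of rats 1 to 8. In their right kidneys it was 239, 208, 189, 188, 343, 252, 125 and 179. Rat 6 was again highest on the left, where rat 8 was lowest, and rat 5 was highest on the right, where the DEX rat 7 was lowest.

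**Figure D1:**
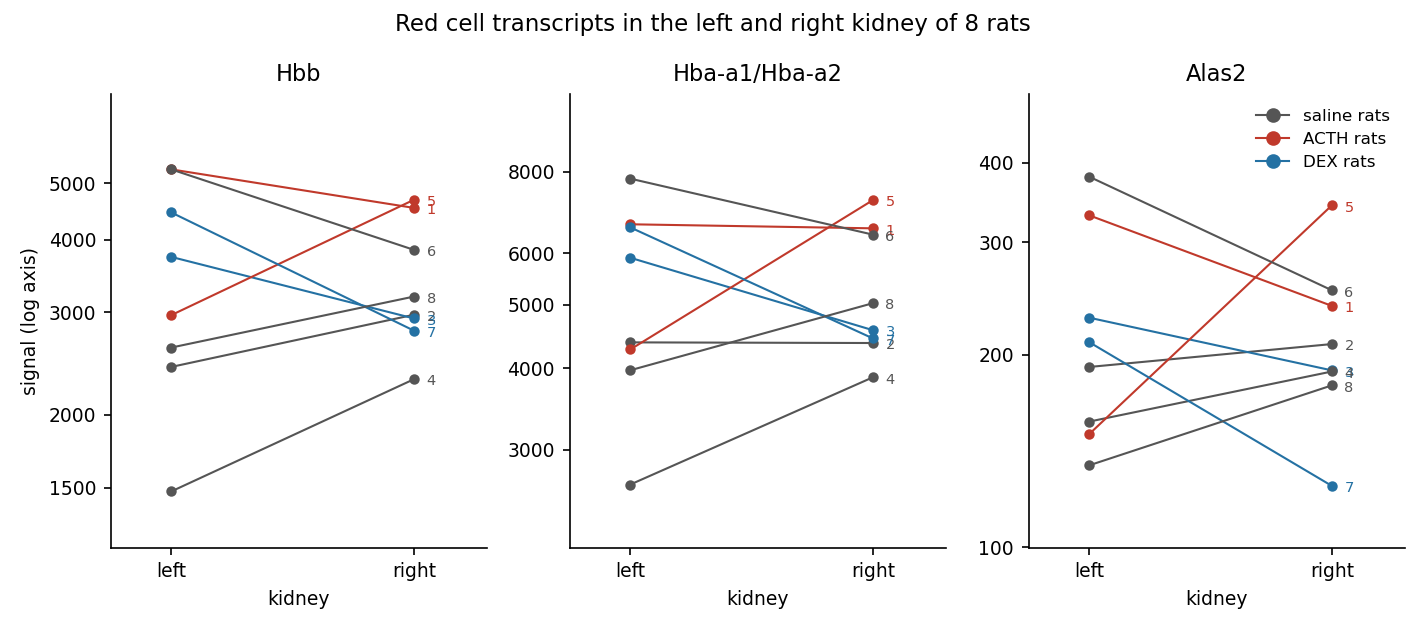
Signal (the authors' linear values, drawn on a log axis) of the Hbb, alpha globin and Alas2 probe sets in the left and right kidney of each rat, with 1 line per rat joining its 2 kidneys and colours for the treatment of the right kidney. Lines slope down in both DEX rats for every probe set shown, and in the other treatments some slope up and some down.

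Over all 8 rats, left and right kidneys differed by less than the spread between rats. Mean Hbb signal was 3529 ± 1396 (SD, n = 8) on the left and 3407 ± 858 (SD, n = 8) on the right, and the mean change was 0.02 ± 0.51 (SD), higher on the right in 4 rats and lower in 4 (exact two-sided permutation test of signs, p = 0.914). The alpha globin probe set averaged 5276 ± 1720 and 5312 ± 1240, with a change of 0.05 ± 0.46, higher in 3 rats and lower in 5 (exact permutation p = 0.781). Alas2 averaged 223 ± 88.6 and 215 ± 64.6, with a change of −0.01 ± 0.60, higher in 4 rats and lower in 4 (exact permutation p = 0.945). With 8 rats the smallest p this test can give is 0.0078. In the fit, right over left in saline rats was 0.19 ± 0.16 (SE) for Hbb, 0.15 ± 0.14 for alpha globin and 0.04 ± 0.21 for Alas2, with a limma adjusted p of 1.0 for each. No member was called, nor was any of the tested probe sets (0%), of which 3.74% had an unadjusted p under 0.05. Single rats differed between sides by up to 1.11 on the log2 scale (Alas2 in rat 5).

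The members were among the most variable transcripts of the kidney. The SD of the left kidney log2 level over 8 rats was 0.63 for Hbb, 0.51 for alpha globin and 0.50 for Alas2, against a median of 0.20 over all tested probe sets, and it exceeded that of 98.2%, 96.0% and 95.8% of them. The SD of the right minus left change was 0.51, 0.46 and 0.60, against a median of 0.19. These exceeded the SD of 97.0%, 95.5% and 98.1% of tested probe sets. The members thus varied more than most transcripts both between rats and between the kidneys of a rat.

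Left and right levels of a rat were loosely related at most. Across the 8 rats, the log2 level of the left kidney correlated with that of the right kidney at r = 0.59 for Hbb (rho = 0.45, exact permutation p = 0.128), 0.46 for alpha globin (rho = 0.38, exact permutation p = 0.244) and 0.13 for Alas2 (rho = 0.29, exact permutation p = 0.756). After adjustment over the 6 globin and Alas2 relations computed, these p-values from permutation were 0.366, 0.366 and 0.756. Without the 2 rats farthest from the median left level, r was 0.02 for Hbb, −0.09 for alpha globin and −0.42 for Alas2, so the positive values rested on those rats, whose removal also narrows the range of levels. The median r over all tested probe sets was 0.56.

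The right minus left changes of the members rose and fell together. For rats 1 to 8 the change of Hbb was −0.22, 0.30, −0.35, 0.63, 0.66, −0.46, −0.67 and 0.29. That of alpha globin was −0.02, −0.0033, −0.37, 0.54, 0.76, −0.28, −0.56 and 0.34, and that of Alas2 was −0.45, 0.11, −0.25, 0.24, 1.11, −0.56, −0.68 and 0.38. Hbb and Alas2 had the same sign in 8 of 8 rats, while alpha globin shared its sign with each of them in 7 of 8, rat 2 being the exception at a change near 0.

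Hbb and alpha globin changes correlated at r = 0.95 over 8 rats (rho = 0.95; exact permutation p = 0.000298, adjusted over 15 pairs 0.000638). Alpha globin and Alas2 correlated at r = 0.91 (rho = 0.90; exact permutation p = 0.00151, adjusted 0.00252). Hbb and Alas2, which lie on different chromosomes and belong to different steps of hemoglobin assembly, correlated at r = 0.90 (rho = 0.90; exact permutation p = 0.00255, adjusted 0.00383). Leaving out the 2 rats farthest from the median left r at 0.89, 0.84 and 0.90. Rats 1 to 4 alone gave 0.90, 0.69 and 0.92, and rats 5 to 8 alone gave 0.997, 0.99 and 0.99, each over 4 rats and given without a test. Levels showed the same order of coupling, with r of 0.98, 0.82 and 0.79 in the left kidneys and 0.98, 0.78 and 0.76 in the right kidneys. All members of a kidney are read from the same array, and globin probe sets can read related transcripts. The globin pair is therefore not made of separate measurements in full. Alas2 has no sequence kinship with the globins, and the source of the coupling was not tested.

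**Figure D2:**
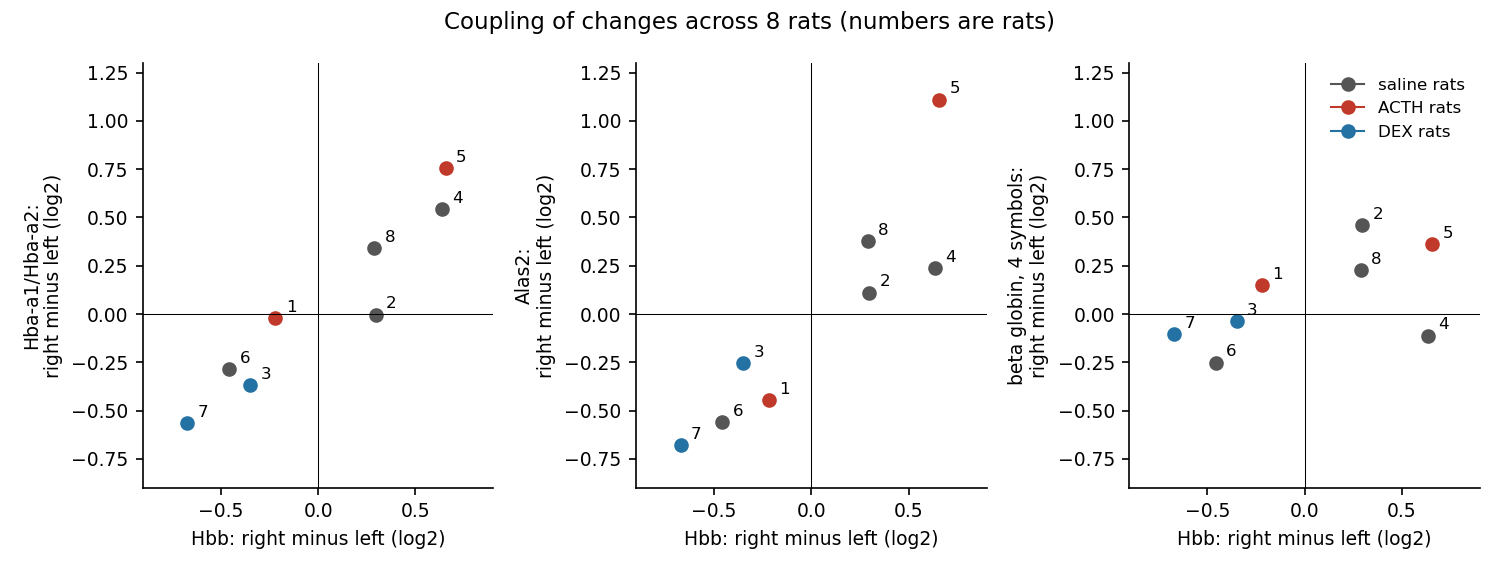
Right minus left change (log2 of signal + 16) of pairs of probe sets, 1 point per rat, coloured by the treatment of the right kidney. The member pairs lie close to a rising line (r = 0.95 for Hbb and alpha globin, 0.90 for Hbb and Alas2), whereas the beta globin probe set annotated to 4 symbols is more scattered against Hbb (r = 0.57).

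In the DEX rats all 3 member probe sets were lower in the treated right kidney, without passing the test. Hbb went from 3736 to 2929 in rat 3 and from 4454 to 2791 in rat 7, alpha globin from 5905 to 4575 and from 6572 to 4444, and Alas2 from 229 to 189 and from 209 to 125. The changes averaged −0.51 ± 0.23 for Hbb, −0.47 ± 0.14 for alpha globin and −0.47 ± 0.30 for Alas2 (SD, n = 2). A probe set lower on the right in both DEX rats was common, at 24% of those tested. Right over left within the DEX rats was called by limma for 0% of probe sets, none of the members among them, and 5.91% had an unadjusted p under 0.05. Hbb (limma unadjusted p = 0.0459) and alpha globin (limma unadjusted p = 0.0322) were in that share, and Alas2 (limma unadjusted p = 0.138) was not. In saline rats the changes were 0.19 ± 0.46, 0.15 ± 0.37 and 0.04 ± 0.42 (SD, n = 4), with rat 6 below 0 for each member and rats 2, 4 and 8 above 0 except for alpha globin in rat 2.

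The DEX effect, the change of the DEX rats minus that of the saline rats, was −0.70 ± 0.28 (SE; 95% interval −1.31 to −0.09) for Hbb, a 1.63-fold lower value. It was −0.61 ± 0.24 (−1.13 to −0.10) for alpha globin, 1.53-fold lower, and −0.51 ± 0.36 (−1.29 to 0.28) for Alas2. The adjusted p from limma was 0.999 for each. None of the 3 was called, and neither was any of the 5244 probe sets (0%) by limma, of which 154 (2.94%) had an unadjusted p under 0.05. Hbb (limma unadjusted p = 0.0280) and alpha globin (limma unadjusted p = 0.0227) were among these 154, and Alas2 (limma unadjusted p = 0.184) was not. The changes of both DEX rats lay below those of all 4 saline rats for alpha globin, as they did for 6.33% of tested probe sets, whereas for Hbb and Alas2 the saline rat 6 lay among the DEX rats. The exact permutation p of DEX against saline was 0.133 for alpha globin and 0.267 for Hbb and Alas2, where 2 rats against 4 cannot give less than 0.0667. Leaving out each rat in turn gave DEX effects of −0.92 to −0.54 for Hbb, −0.76 to −0.48 for alpha globin and −0.72 to −0.30 for Alas2, and the limma adjusted p was never below 0.983.

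The ACTH rats disagreed with each other. In rat 1 the treated kidney was lower than the left one, from 5282 to 4536 for Hbb, 6645 to 6551 for alpha globin and 331 to 239 for Alas2. In rat 5 it was higher, from 2969 to 4685, 4274 to 7237 and 150 to 343. Group means of the change were 0.22 ± 0.62, 0.37 ± 0.55 and 0.33 ± 1.10 (SD, n = 2), so that for Hbb, alpha globin and Alas2 alike the spread exceeded the mean. The ACTH effect over saline was 0.03 ± 0.28 (SE; 95% interval −0.58 to 0.64; limma adjusted p = 0.988) for Hbb. It was 0.22 ± 0.24 (−0.29 to 0.73; limma adjusted p = 0.881) for alpha globin and 0.29 ± 0.36 (−0.49 to 1.07; limma adjusted p = 0.904) for Alas2. No member was among the 0.496% of probe sets called in this comparison, nor among the 3.57% called for right over left within the ACTH rats. For rats 1 to 4 by themselves the effect was −0.68, −0.29 and −0.62, while rats 5 to 8 gave 0.74, 0.73 and 1.20, for Hbb, alpha globin and Alas2 in that order. Without rat 5 all 3 effects were below 0, at −0.41, −0.17 and −0.49. The exact permutation p was 0.933, 0.6 and 0.667.

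**Figure D3:**
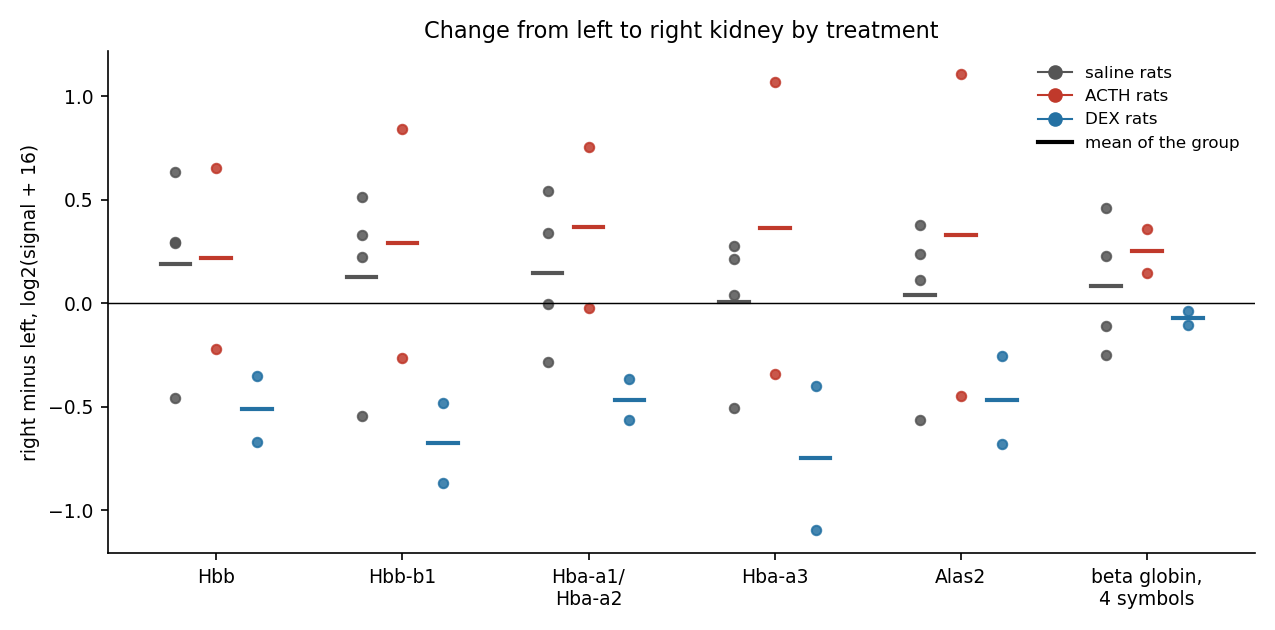
Right minus left change (log2 of signal + 16) of each globin and Alas2 probe set by treatment of the right kidney, 1 point per rat, with group means as bars. Both DEX rats lie below 0 for the members, the ACTH rats lie on either side of 0, and the saline rats lie on both sides of 0 as well.

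Both effects share the 4 saline rats. The direct contrast does not use the changes of those rats in its size, and they enter only its estimate of the spread. The ACTH change minus the DEX change was 0.73 ± 0.33 (SE; 95% interval 0.02 to 1.44; limma adjusted p = 0.399) for Hbb. It was 0.83 ± 0.27 (0.24 to 1.43; limma adjusted p = 0.252) for alpha globin and 0.80 ± 0.42 (−0.11 to 1.70; limma adjusted p = 0.482) for Alas2. None of the members was called, against 0.572% of all tested probe sets. Without rat 1, leaving rat 5 as the only ACTH rat, the contrast was 1.17 for Hbb, 1.22 for alpha globin and 1.58 for Alas2. Without rat 5, leaving rat 1, it was 0.29, 0.44 and 0.022 in the same order. A lone rat is assumed in these fits to vary like the others.

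The right kidneys on their own gave another picture of ACTH. Both ACTH rats had higher Hbb (4536 and 4685) than any of the other 6 right kidneys (2304 to 3842), and the same held for alpha globin (6551 and 7237 against 3875 to 6407), an arrangement met by 4.41% of tested probe sets and singled out after the values were seen. For Alas2, rat 1 at 239 lay below the saline rat 6 at 252. Right kidneys of ACTH rats exceeded those of saline rats by 0.60 ± 0.19 (SE; limma adjusted p = 0.681) for Hbb, 0.51 ± 0.19 (limma adjusted p = 0.916) for alpha globin and 0.45 ± 0.23 (limma adjusted p = 0.999) for Alas2. DEX right kidneys differed from saline ones by −0.08 ± 0.19, −0.10 ± 0.19 and −0.38 ± 0.23 (SE). For Hbb and alpha globin most of the paired DEX effect thus lay in the left kidneys. There Hbb was at 3736 and 4454 in the DEX rats and at 1478, 2419, 2611 and 5281 in the saline rats. Alpha globin was there at 5905 and 6572 in the DEX rats and at 2655, 3972, 4383 and 7805 in the saline rats. For Alas2 the larger part lay in the right kidneys, at −0.38 beside a paired effect of −0.51.

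Other globin probe sets showed which of these patterns extend past the members. Hbb-b1, a further adult beta globin, had left kidney signals of 886 to 3356 and right kidney signals of 1270 to 2755. Its changes correlated with those of Hbb at r = 0.99 (rho = 0.98; exact permutation p = 4.96e-05, adjusted 0.000248), on a probe set whose design can read related transcripts. Hba-a3, a further alpha globin, ranged from 54.1 to 253 on the left and from 69.0 to 201 on the right, and its changes correlated with those of Alas2 at r = 0.97 (rho = 0.95; exact permutation p = 0.000124, adjusted 0.000372). The DEX effect was −0.81 ± 0.31 (SE) for Hbb-b1 and −0.75 ± 0.34 for Hba-a3, and the ACTH effect was 0.16 ± 0.31 and 0.36 ± 0.34, all uncalled. Signals of the embryonic globins Hbe1 and Hbg1 averaged 35.4 to 44.9 over 16 arrays and were under the brightness filter. An Hbe2 probe set passed it at a mean of 65.9, and its change varied with an SD of 0.12, below the median of all probe sets.

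A probe set annotated to the beta globin symbols Hbbl1, Hbb-bs, Hbb-b1 and Hbb behaved unlike the others. In the left kidneys of rats 1 to 8 its signals were 4025, 2601, 3655, 2928, 1912, 2281, 2283 and 1762, and in the right kidneys 4462, 3588, 3560, 2709, 2460, 1913, 2124 and 2066. All 8 kidneys of rats 1 to 4 lay above all 8 of rats 5 to 8, at no less than 2601 against no more than 2460, as levels of 18.3% of tested probe sets were likewise separated in either direction. Hbb itself showed no such split, with left kidneys of 1478 to 5282 in rats 1 to 4 and 2611 to 5281 in rats 5 to 8. The changes of the probe set for 4 symbols correlated with those of Hbb at r = 0.57 (rho = 0.55; exact permutation p = 0.137, adjusted 0.147), with r of 0.01 in rats 1 to 4 alone and 0.94 in rats 5 to 8 alone. They correlated with alpha globin at 0.48 and with Alas2 at 0.64, values below those among the members, and the difference was not tested. The split coincides with the largest axis of variation among the arrays, and the part of that axis in it was not tested.

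**Figure D4:**
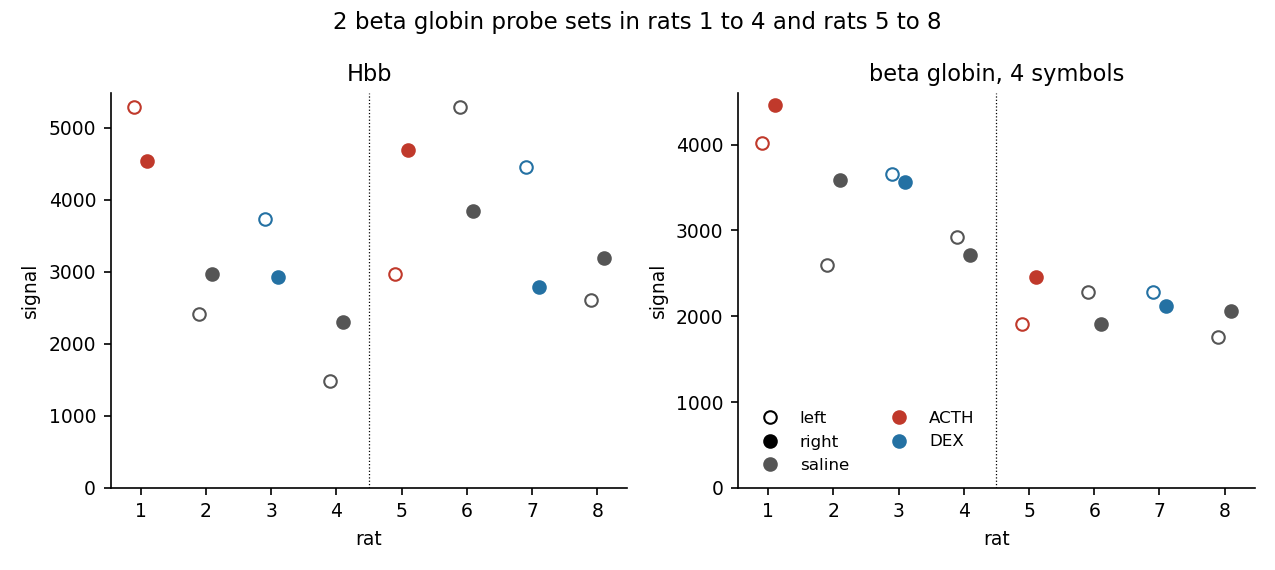
Signal (linear scale, authors' units) of the Hbb probe set and of the probe set annotated to 4 beta globin symbols in both kidneys of each rat. The second separates rats 1 to 4 (2601 and above) from rats 5 to 8 (2460 and below), and Hbb does not.

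Some genes outside the globins changed as closely in step with Hbb or Alas2 as the members did with each other. Among 3192 other genes with a tested probe set, 8 had a change correlating with that of Hbb above 0.9 over the 8 rats and none fell under −0.9. The 5 highest were Hbb-b1 (r = 0.99), Apba3 (0.97), Zswim8 (0.94), Ap1b1 (0.93) and Hba-a3 (0.93), and the 3 lowest were Mgat3 (−0.88), Src (−0.86) and Gja3 (−0.86). For Alas2, 24 genes were above 0.9 and 4 under −0.9. The highest were Tsc2 (0.98), Hba-a3 (0.97), Arl6ip4 (0.97), Apba3 (0.96) and Nr1h2 (0.96), and the lowest Cpsf2 (−0.92), Ubtf (−0.92) and Gja3 (−0.91). These values describe a ranking over all genes in 8 rats, and no test is attached. Changes of the non-globin genes named here were smaller than those of Hbb, with an SD of 0.22 for Apba3 against 0.51 for Hbb. The median SD over all tested probe sets was 0.19. In left kidney levels Apba3 correlated with Hbb at −0.15, whereas Hbb-b1 and Hba-a3 did so at 0.99 and 0.92.

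Other genes of red cells that were tested did not follow the globins closely, and several were dim. Of 31 such genes listed, 10 were annotated on the array and 7 were tested. Slc4a1 is the anion exchanger of the red cell membrane, and intercalated cells of the collecting duct also make it. Its change correlated with that of Hbb at 0.55 and of Alas2 at 0.70, at signals of 132 to 257. In the DEX rats 3 and 7, where all members were lower, it changed by 0.01 and 0.09. Its DEX effect was 0.11 ± 0.24 (SE). The other 6 correlated with Hbb at −0.52 to 0.21. None of the 7 was called under ACTH or DEX, where 0.496% and 0% of all tested probe sets were. The ACTH effect was positive for 4 and negative for 3 (median 0.15), and the DEX effect positive for 5 and negative for 2 (median 0.06), beside medians of −0.00 over all tested probe sets. Gata1, a transcription factor of the red cell lineage, had an ACTH effect of 0.26 ± 0.16 (SE), and Prdx2, an abundant peroxidase of red cells, one of 0.25 ± 0.23.

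Genes around the members' pathway were likewise uncalled in both hormone effects, at the same background shares. Heme synthesis had 4 tested genes of 11, with ACTH effects positive for all 4 (median 0.21) and DEX effects positive for 2 (median −0.01). Alas1, the housekeeping counterpart of Alas2, had the largest values of this list, at 0.74 ± 0.28 (SE; limma adjusted p = 0.408) under ACTH and 0.68 ± 0.28 (limma adjusted p = 0.999) under DEX. Under DEX it thus had the opposite sign to Alas2. Of 7 tested genes for heme breakdown and hemoglobin scavenging, 2 were higher and 5 lower under either hormone, with medians of −0.19 and −0.11. Hmox1, which opens the heme ring, had an ACTH effect of −2.12 ± 0.73 (limma adjusted p = 0.331) that rested on rat 1, at −0.25 without it. Without rat 5 it was −3.99 (limma adjusted p = 0.000797), a fit in which rat 1 is the lone ACTH rat and is assumed to vary like the other groups. Haptoglobin (Hp), which binds free hemoglobin, stood at 0.04 under ACTH and −0.20 under DEX.

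Of 6 tested genes for iron transport and storage, 2 were higher and 4 lower under ACTH (median −0.21), and 5 higher and 1 lower under DEX (median 0.07). Tfrc, the transferrin receptor that loads red cell precursors with iron, stood at 0.04 under ACTH and 0.42 ± 0.21 (SE) under DEX, and Slc11a2, an iron importer, at −0.47 ± 0.21 under ACTH. The 6 tested genes of the erythropoietin and oxygen response were split 3 and 3 under ACTH (median −0.02) and 5 and 1 under DEX (median 0.08). Hif1a, a subunit of the oxygen-sensing factor, had effects of −0.39 ± 0.15 and 0.26 ± 0.15. Epo, the kidney's own red cell hormone, was under the brightness filter, and Bpgm and Fech had no probe set with that symbol.

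Markers of other cells that share the vessels or adhere to the kidney were followed beside the members. The mean change of 7 leukocyte markers for rats 1 to 8 was −0.34, 0.02, −0.14, 0.09, −0.02, 0.03, −0.13 and 0.06, negative in both DEX rats and both ACTH rats, and it correlated with that of Hbb at 0.55. Their summed signal was 1996 to 2983 in the left kidneys, and 2120 to 2721, 1414 to 2675 and 2375 to 2642 in the right kidneys of saline, ACTH and DEX rats. Of the 7 markers, 1 was higher and 6 lower under ACTH (median −0.22), and 1 higher and 6 lower under DEX (median −0.24). Of 5 endothelial markers, 2 were higher and 3 lower under ACTH (median −0.12), and all 5 were lower under DEX (median −0.16), the direction of the members there. Their mean change correlated with that of Hbb at 0.50, and their sums were 578 to 695 on the left and 594 to 695, 563 to 632 and 586 to 622 on the right. No marker of either list was at 0, and none was called under ACTH or DEX. 

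Of 3 tested platelet markers, 2 were higher and 1 lower under ACTH (median 0.04), and 1 higher and 2 lower under DEX (median −0.07). All 5 tested plasma protein markers were higher under ACTH (median 0.09), and 2 were higher and 3 lower under DEX (median −0.10), with no call in either list. For right over left in ACTH rats, where 3.57% of all probe sets were called, the called plasma protein genes were Alb (0.56, limma adjusted p = 0.0292) and Fga (0.59, limma adjusted p = 0.0477). Both calls were lost without the rat block and without either ACTH rat. That of Fga was also lost with a pseudocount of 1, no filter or no trend and without rat 3, 4 or 7, at changes of 0.56 to 0.69 over all these settings. The summed signal of the 5 plasma protein markers was 400 to 483 on the left and 397 to 477, 487 to 543 and 411 to 465 in saline, ACTH and DEX right kidneys, and their mean change correlated with that of Hbb at 0.08.

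Adipose markers had the largest medians of the 7 cell type lists. The mean change of 7 such markers for rats 1 to 8 was 1.64, 0.49, −1.28, −0.32, 0.52, −1.12, −1.28 and 0.23, and it correlated with that of Hbb at 0.49. All 7 were higher under ACTH (median 1.03), and 1 was higher and 6 lower under DEX (median −1.34), none of them called. For ACTH minus DEX all 7 were higher (median 2.81, beside 0.02 over all tested probe sets), the direction of the members. Of these, Fabp4 (3.05 ± 0.60 SE, limma adjusted p = 0.0476), Cfd (2.48 ± 0.49, limma adjusted p = 0.0489) and Ucp1 (3.27 ± 0.60, limma adjusted p = 0.0351) were called, where 0.572% of all probe sets were. Each of these calls was lost in several settings, among them without rat 1, 3, 4 or 7, with changes of 1.68 to 4.10 over the fits that leave out a rat. The mean adipose change had the opposite sign to Hbb in rats 1 and 4. Summed adipose signal was 900 to 3760 on the left, 946 to 1616 in saline, 1661 to 11857 in ACTH and 979 to 1322 in DEX right kidneys, with no marker at 0. The part of adherent tissue, leukocytes or vessel content in the members' changes was not tested.

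Nephron markers were split in direction. Of 9 proximal tubule markers, 5 were higher and 4 lower under ACTH (median 0.02), and 7 higher and 2 lower under DEX (median 0.11). Kap, an androgen-responsive proximal tubule gene, was called lower under ACTH (−0.78 ± 0.12 SE, limma adjusted p = 0.018), in ACTH minus DEX (−0.99 ± 0.14, limma adjusted p = 0.0161) and for right over left in ACTH rats (−0.84 ± 0.10, limma adjusted p = 0.00086). Of 12 distal nephron and collecting duct markers, 8 were higher and 4 lower under ACTH (median 0.19), and 7 higher and 5 lower under DEX (median 0.09), with no call in either. For right over left in ACTH rats, Calb1 (0.77) and Klk1 (0.50) were called higher and Egf (−0.78) lower. The calls of Kap, Calb1, Klk1 and Egf were lost without the rat block, and those of Calb1, Klk1 and Egf also without rat 5. That of Klk1 was lost too with no filter, with quantile normalization, with no trend and without rat 2, 3, 4, 7 or 8, and that of Egf without rat 1. The ACTH call of Kap was lost without rat 2, 4 or 5, and its call in ACTH minus DEX without rat 3 or 7.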

How the data were processed

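RNA was extracted with Tri-Reagent and RNeasy columns, and 5 to 8 µg were made into biotinylated cRNA, per the labels' protocols. Each deposited value is an intensity on a linear scale for 1 probe set on 1 array. The software and normalization behind it are not stated in the sources at hand, and array medians were too close for rescaling. Of 8799 probe sets, 59 controls were removed, and the 40% dimmest by mean log2(intensity + 16) were left out, which bounds tests to 5244. Symbols come from the platform's annotation: 7006 probe sets carried 1 symbol, 308 several and 1426 none. A pseudocount of 16 shrinks folds of dim probe sets.

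Tests used limma (version 3.58.1, R 4.3.3), fitted per probe set with the rat as a block, a right kidney term and ACTH and DEX terms, with an intensity trend and Benjamini-Hochberg adjustment over all 5244, two-sided, at a threshold of 0.05. The pairing comes from the rat numbers in the titles. Kidneys of the same number deviated together in every rat. Kidneys of different rats within rats 1 to 4 or rats 5 to 8 also share a side of the largest axis. No value for such kidneys is given, so the correlations do not by themselves test the pairing. The fit was tested on simulated data. The labels do not say more about the rats than their numbers, so p-values measure the spread between these samples. Precision is set by the number of rats, 8 in all and 2 for each hormone, rather than by the number of arrays. Members and lists were chosen with earlier results of these data known. Named genes are all member probe sets, the 5 most and 3 least alike genes for Hbb and Alas2, and, of each pathway list, called members, the 2 with the largest ACTH and DEX effects, and a few fixed names, given where they add to the account. Cell type lists are given by counts and medians, with called members named. Alternatives were other pseudocounts, no filter, quantile normalization, no replicate block, right kidneys only, no trend, rats 1 to 4 and rats 5 to 8 apart, and each rat left out.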

Additional observations from a re-analysis of the deposited data

Results flagged for a closer look

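A probe set annotated to 10 symbols, among them Hba-a2 and Hbb, is no member, since most of its genes are unrelated. In the left kidneys its lowest signal, 148 in rat 2, stood apart from the other 7: its gap to the nearest, on the log2 scale, was 0.608 of the whole range, past Dixon's critical value for 8 samples. This was 1 of 24 groups of values checked, where chance marks about 1 in 20.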

How the results depend on the processing

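With 8 rats and 2 in each hormone group, a single rat decides several values. The 36 alternatives for the coupling of the members kept its direction and its side of the threshold. Without the replicate block (the pairing of kidneys by rat), 0 probe sets were called for ACTH, 0 for ACTH minus DEX and 4 for right over left in ACTH rats, against 26, 30 and 187 with it, and the members' calls stayed as they were. Right kidneys alone gave 0 calls for ACTH and 0 for ACTH minus DEX. Quantile normalization gave 12 for ACTH, and turned the mean right minus left change of alpha globin to −0.0016 and of Hbb to −0.018. Right over left in saline rats had 1 call with a pseudocount of 1, with no filter, with quantile normalization and with no trend.

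Leaving out each rat in turn gave 9 to 114 calls for ACTH, 0 to 3 for DEX, 2 to 100 for ACTH minus DEX, and 0 to 1, 119 to 272 and 0 to 4 for right over left in saline, ACTH and DEX rats. The ACTH effect then ran from −0.41 to 0.46 for Hbb, −0.17 to 0.61 for alpha globin and −0.49 to 1.07 for Alas2, all 3 below 0 without rat 5 and Hbb also without rat 6. Right over left in ACTH rats ran from −0.22 to 0.66, −0.021 to 0.76 and −0.45 to 1.11 for Hbb, alpha globin and Alas2. ACTH minus DEX ran from 0.022 to 1.58 for Alas2, and right over left in saline rats from −0.071 to 0.24 for Alas2. The Alas2 values of 1.11 and 1.58 came from the fit without rat 1, where Alas2 passed the threshold in both comparisons. In that fit rat 5 is the lone ACTH rat and is assumed to vary like the others. The mean change over 8 rats ran from −0.068 to 0.12 for Hbb, −0.051 to 0.14 for alpha globin and −0.17 to 0.082 for Alas2.

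Within rats 1 to 4 and rats 5 to 8, the ACTH effect was −0.68 and 0.74 for Hbb, −0.29 and 0.73 for alpha globin and −0.62 and 1.20 for Alas2. ACTH minus DEX was 0.13 and 1.33, 0.35 and 1.32, and −0.19 and 1.79. Right over left in ACTH rats was −0.021 and 0.76 for alpha globin and −0.45 and 1.11 for Alas2.

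Among other genes, right kidneys alone turned the DEX effects of Hba-a3 (0.088), the beta globin probe set of 4 symbols (0.14), Vegfa (−0.044) and Urod (0.028) and the ACTH effects of Hp (−0.059) and Slc40a1 (0.058). Leaving out a rat turned the ACTH effects of Hbb-b1 (−0.39 to 0.71), Hba-a3 (−0.35 to 1.06), Hp (−0.023 to 0.095), Tfrc (−0.36 to 0.45) and Slc4a1 (−0.35 to 0.65), and the DEX effects of Rhd (−0.33 to 0.11) and Urod (−0.20 to 0.090). The cause of these moves was not tested.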
